A study of Sus scrofa with 2 samples.

Results

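Messenger RNAs of 7 glycolytic enzymes, from hexokinase to enolase, were compared in the *longissimus dorsi* muscle (LM) of Shaziling and Yorkshire pigs. All 7 genes (HK2, GPI, PFKM, TPI1, GAPDH, ENO1 and ENO3) had more reads per length and library in Shaziling, by 2.24-fold for GPI to 7.28-fold for ENO1. They were represented by 8 assembled transcripts (unigenes), of which 6 are among the 65535 unigenes of the deposited table. The unigenes of GAPDH and ENO3 are in the study's list of differentially expressed genes (DEGs) only, and their values are given from that list.

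Members were chosen by name. HK2, GPI and PFKM were found in the table by the pig RefSeq protein to which the unigene had been matched. GPI and PFKM are in the list of DEGs as well, but were found without it. TPI1, ENO1, GAPDH and ENO3 were found through the list of DEGs alone, which holds 484 unigenes selected by the study at a false discovery rate of 5% and at least 2-fold difference. A fold change of 2 or more was therefore fixed for these 4 genes by the way they were found, and their differences are given as a description.

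The animals were male pigs of 25 days, and all pigs of a breed were full-sibs. Shaziling is a Chinese indigenous breed with a high content of intramuscular fat, and Yorkshire is a lean breed with fast growth; no treatment was given to either. Each breed has 1 column of reads and 1 column of RPKM values (reads scaled to unigene length and to library size), and each column name lists 3 animals. The values of a breed were treated as 1 library, so no spread between pigs is known and no difference below has a replicate check. Breed, litter and library cannot be told apart. The breeds follow the sample titles and column names, while another field of the sample labels has the indigenous and lean types the other way round.

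Glycolysis splits glucose into pyruvate and yields ATP without oxygen. Hexokinase, glucose-6-phosphate isomerase and phosphofructokinase prepare the sugar at the cost of ATP, aldolase and triosephosphate isomerase make and interconvert the triosephosphates, and glyceraldehyde-3-phosphate dehydrogenase to pyruvate kinase recover energy from them. In skeletal muscle the pathway is most active in fast white fibres, which contract quickly and rely less on mitochondria. Several steps have a muscle form and a more widely expressed form of the enzyme, such as ENO3 and ENO1 for enolase.

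The RPKM values corresponded to library totals of 33949238 reads for Yorkshire and 28305925 for Shaziling. A pair of mitochondrial unigenes took 46.4% of the total in Yorkshire and 11.8% in Shaziling. This raises the RPKM of all other transcripts in Shaziling relative to Yorkshire. The pair was found through the list of DEGs, as its mitochondrial unigenes with the most Yorkshire reads. A difference of 2-fold or more was therefore fixed for it. Only this pair was taken off the totals in the scaling without mitochondrial unigenes given below. Among the 304 unigenes whose mean RPKM was at least 100, 73.4% were higher in Shaziling, with a median ratio of 1.70. The 95% intervals given with a ratio come from the reads (Clopper-Pearson, exact) and cover counting error only.

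HK2 (contig_46718, 789 bp), the hexokinase that phosphorylates glucose in muscle, was the least abundant of the enzymes. Its 10 Yorkshire reads gave an RPKM of 0.373, and its 24 Shaziling reads an RPKM of 1.07. Shaziling was thus 2.88 times higher (95% confidence interval 1.33 to 6.74). The unigene is a fragment, with a length of 28.7% of the coding sequence of its 917-residue protein, and its few reads leave a wide interval.

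GPI (contig_1130, 2034 bp) converts glucose 6-phosphate to fructose 6-phosphate. The Yorkshire library held 13094 GPI reads (RPKM 190) and the Shaziling library 24454 (RPKM 425). Its ratio of 2.24 (95% confidence interval 2.19 to 2.29) was the lowest of the 7 genes.

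PFKM (contig_196, 6174 bp) is the muscle form of phosphofructokinase, the enzyme of the committed and regulated step. Its reads numbered 25774 in the Yorkshire library (RPKM 123) and 71778 in the Shaziling library (RPKM 411). The ratio was 3.34 (95% confidence interval 3.29 to 3.39). With 6174 bp, the unigene is longer than the 2340 bp that code for its protein, so it also holds other sequence. The nature of that sequence was not tested.

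TPI1 (contig_1443, 2070 bp), which equilibrates both triosephosphates, received 18327 Yorkshire reads (RPKM 261). From Shaziling it received 63252 (RPKM 1079.5), which is a 4.14-fold difference. The name of this unigene rests on the list of DEGs, where its UniProt match is bovine triosephosphate isomerase.

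GAPDH (contig_149, 1368 bp) oxidises glyceraldehyde 3-phosphate and was the most abundant of the enzymes. Its RPKM in the list of DEGs is 5444 for Yorkshire and 23521 for Shaziling. These values correspond to 252848 and 910777 reads when multiplied by the length and the library totals, and the products were whole numbers to within 1.92e-05 reads. The ratio was 4.32 (95% confidence interval 4.30 to 4.34).

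ENO3 (contig_111, 2005 bp) is the muscle enolase, which forms phosphoenolpyruvate. Its RPKM in the list of DEGs is 1775 in Yorkshire and 6532 in Shaziling, corresponding to 120788 and 370691 reads. The ratio was 3.68 (95% confidence interval 3.66 to 3.70).

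ENO1, the enolase expressed in most tissues, was represented by 2 fragments that both took the name of bovine alpha-enolase from the list of DEGs. On the longer fragment (contig_8755, 740 bp), 391 reads fell in the Yorkshire library (RPKM 15.6), against 2374 in Shaziling (RPKM 113). This was the highest of the 7 ratios, at 7.28 (95% confidence interval 6.54 to 8.13).

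The shorter ENO1 fragment, contig_20811 (297 bp), had 191 and 885 reads (RPKM 18.9 and 105). Here Shaziling was 5.56 times higher (95% confidence interval 4.75 to 6.53). The ratios of the fragments differed by 1.31-fold (95% confidence interval 1.08 to 1.58), which is more than counting error alone. Enolase genes are alike in sequence, and whether reads were divided among them was not tested.

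**Figure D1:**
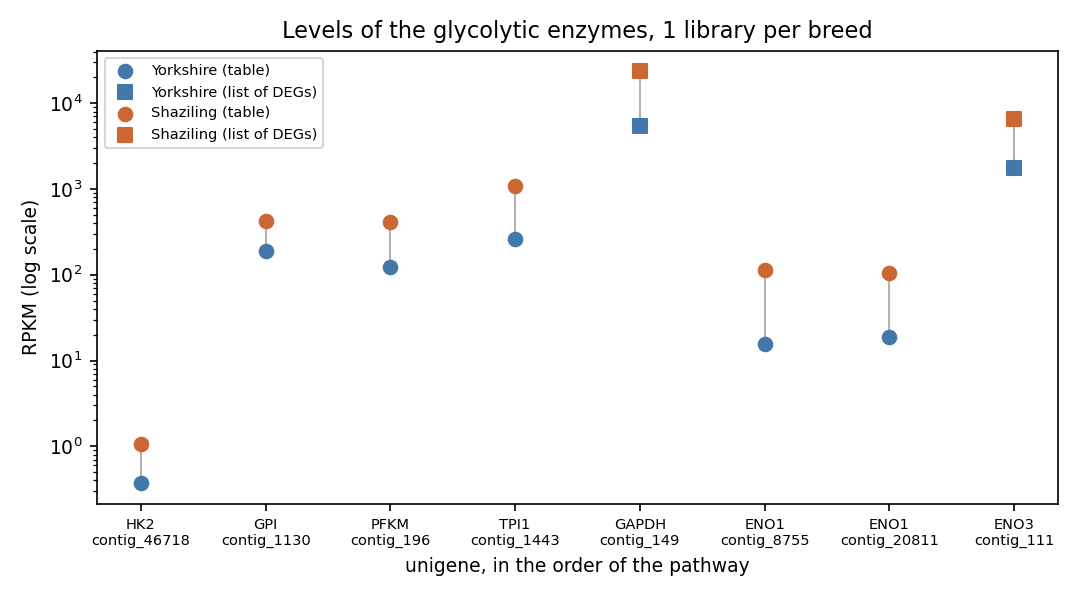
RPKM (log scale) of each enzyme unigene in the Yorkshire and the Shaziling library, in the order of the pathway; circles are values of the deposited table, squares are values of the list of DEGs, and there is 1 library per breed. Every Shaziling point lies above its Yorkshire point, and the levels run from an RPKM under 2 for HK2 to 23521 for GAPDH.

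Per length, the order of the levels was the same in both libraries. GAPDH was followed by ENO3, TPI1, GPI, PFKM, ENO1 and HK2. GAPDH was 3.07 times the RPKM of ENO3 in Yorkshire and 3.60 times in Shaziling. The closest neighbours were TPI1 and GPI in Yorkshire, where TPI1 was 1.38 times GPI, and GPI and PFKM in Shaziling, where GPI was 1.03 times PFKM. GAPDH and ENO3 together made up most of the summed RPKM of the 7 genes, with 69.7% and 22.7% in Yorkshire and 73.3% and 20.4% in Shaziling. All 8 unigenes took 1.27% of the reads of the Yorkshire library and 5.10% of those of the Shaziling library.

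The steps of the pathway did not have the same ratio. Relative to the library totals, the enzymes up to phosphofructokinase (HK2, GPI and PFKM) had ratios of 2.24 to 3.34, and the enzymes from triosephosphate isomerase to enolase (TPI1, GAPDH, ENO3 and ENO1) had ratios of 3.68 to 7.28. These are single ratios of few genes, and those of the latter group were fixed at 2 or more by the way they were found. The 3 enzymes of the former group were found by RefSeq accession, although GPI and PFKM are in the list of DEGs as well. The 4 of the latter were found through that list alone, so the step of the pathway and the way of finding cannot be told apart. The interval of HK2 also covers the ratios of PFKM, TPI1, GAPDH and ENO3.

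Ratios between enzymes of the same libraries do not depend on the library totals. GPI had 72.7% of the RPKM of TPI1 in Yorkshire and 39.3% in Shaziling, so that the ratio of GPI to TPI1 in Shaziling was 0.541 of that in Yorkshire (95% confidence interval 0.527 to 0.556). PFKM relative to TPI1 was 0.807 (95% confidence interval 0.790 to 0.825) of its Yorkshire value. TPI1 and GAPDH, which act in succession, stayed close to each other. TPI1 had 4.79% of the RPKM of GAPDH in Yorkshire and 4.59% in Shaziling.

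The levels of the enolases were closer to each other in Shaziling. ENO3 had 114 times the RPKM of ENO1 in Yorkshire and 57.6 times in Shaziling. ENO1 relative to ENO3 was therefore 1.98 times higher in Shaziling (95% confidence interval 1.78 to 2.20). The level of ENO1 remained small, with 0.877% of that of ENO3 in Yorkshire and 1.74% in Shaziling.

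GAPDH was the reference gene for the qPCR of the study, so each enzyme was also expressed relative to it. Of the other 6 genes, ENO1 alone had a higher ratio than GAPDH, by 1.69-fold (95% confidence interval 1.51 to 1.88). Relative to GAPDH, 4 genes were lower in Shaziling than in Yorkshire beyond counting error. These were GPI at 0.518, PFKM at 0.773, ENO3 at 0.852 and TPI1 at 0.958 of the Yorkshire value. HK2 was at 0.666, with an interval of 0.319 to 1.39 that includes 1.

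**Figure D2:**
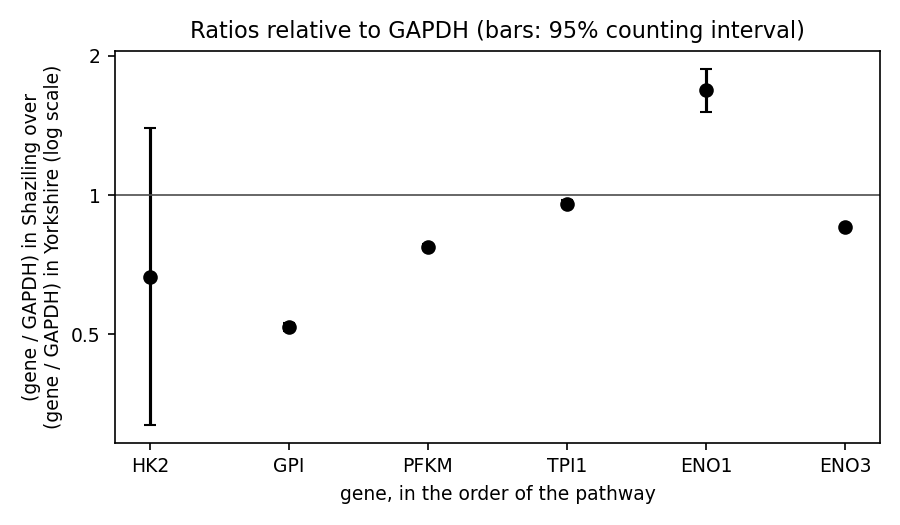
Level of each enzyme relative to GAPDH in the Shaziling library, divided by the same value in the Yorkshire library (log scale); bars are 95% intervals of counting error. ENO1 lies above 1 at 1.69, GPI, PFKM, ENO3 and TPI1 lie below 1 (0.518 to 0.958), and the bar of HK2 crosses 1.

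Differences of this size were also found between unigenes that belong to the same protein. Over 125 proteins of the table with more than 1 unigene and 100 or more reads in each library, the log2 ratios of the most abundant pair of unigenes differed by a median of 0.47, and by 1.26 at the 90th percentile. Of the 21 pairs among the 7 enzymes, 16 differed beyond counting error, 12 differed by more than this median, and 2 by more than the 90th percentile. The latter pairs were ENO1 with GPI and ENO1 with HK2. HK2 had fewer than 100 reads in each library, so its unigene would not have entered the set that gave the spread. The pairs with HK2, that with ENO1 among them, are in these counts but have no like comparison there. Whether they exceed the spread between unigenes of a protein therefore cannot be decided. The difference between TPI1 and GAPDH (0.06 on the log2 scale) was well within this spread.

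Unigenes were taken as different between the libraries with an RPKM ratio of 2, an RPKM of 1 in the higher library and an adjusted p of 0.05 (exact binomial test of the read numbers, adjusted after Benjamini and Hochberg over all unigenes). With 1 library each, this is a test between libraries, not between breeds. By these thresholds, 19.3% of the 65535 unigenes of the deposited table were higher in Shaziling, and 5.93% were higher in Yorkshire. The table leaves out part of the assembled unigenes, those of GAPDH and ENO3 among them. Among unigenes whose mean RPKM was at least 100 the shares were 42.4% and 3.95%. All 5 genes of the table passed in favour of Shaziling, but TPI1 and ENO1 had been found through the list of DEGs and add nothing to this count. The 3 genes found by accession (HK2, GPI and PFKM) passed as well, HK2 with an adjusted p of 0.0172 in the exact binomial test.

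The 3 genes found by accession had a median ratio of 2.88, which is the value of HK2. The median of all 7 genes, 3.68, includes the 4 genes that the list of DEGs fixed at 2 or more. Of the unigenes whose mean RPKM was at least 100, a level that HK2 and ENO1 did not reach, 27.3% had a ratio of 3 or more and 17.8% a ratio of 4 or more. The enzymes found by accession were set beside the unigenes whose mean RPKM lay within a factor of 2 of their own. PFKM had a higher ratio than 143 of 186 such unigenes, and GPI than 101 of 161. For HK2, 69.4% of the 40947 unigenes of like level had a lower ratio. The ratios of these 3 enzymes were thus above the median of unigenes of like level and within the range of many of them.

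**Figure D3:**
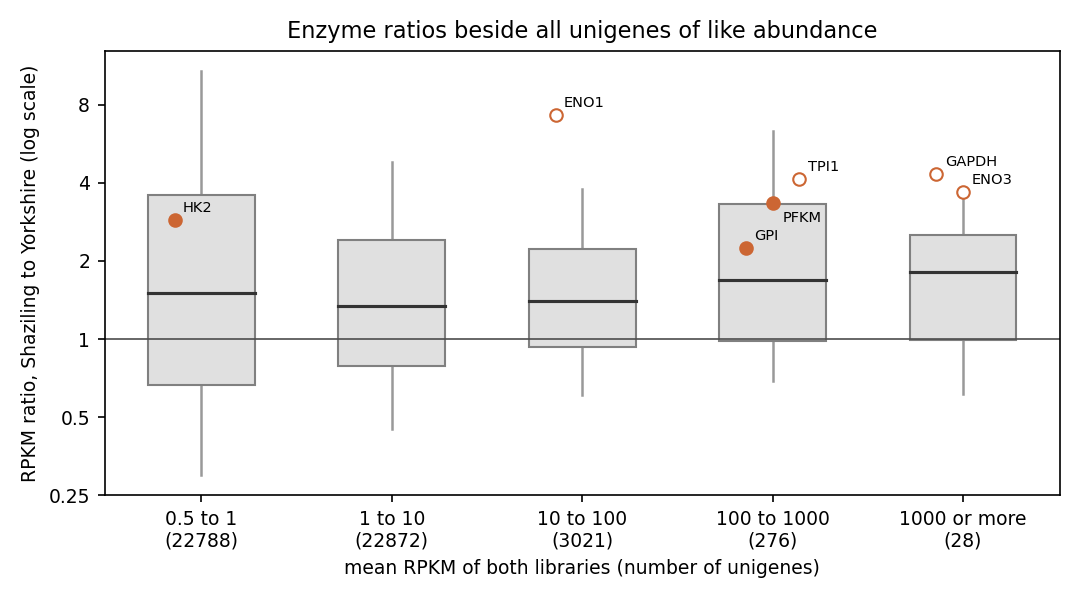
RPKM ratio of Shaziling to Yorkshire (log scale) over all unigenes by class of mean RPKM; boxes span the 25th to 75th percentile with the median as a line, and whiskers reach the 10th and 90th percentile. Filled points are enzymes found by RefSeq accession and open points those found through the list of DEGs; HK2 and GPI lie inside the box of their class, PFKM at its upper edge, and ENO1 and GAPDH above the whisker.

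The size of the differences depended on the scaling of the libraries. Their direction could not change, because the lowest relative factor, 0.608, keeps a ratio of 2 or more above 1. Under each of the 4 other scalings, all 7 genes kept a ratio above 1, although the interval of HK2 included 1 under 3 of them. With the reads of the 2 mitochondrial unigenes taken off the totals, the lowest of all scalings, the ratio was 1.36 for GPI (95% confidence interval 1.33 to 1.39). It was 2.03 for PFKM, 2.24 for ENO3, 2.52 for TPI1, 2.63 for GAPDH and 4.43 for ENO1. The ratio of GPI fell below 2 under each of the 4 scalings (1.36 to 1.75). HK2 no longer passed the thresholds under any of them, with adjusted p from 0.0901 to 0.307 in the exact binomial test. PFKM, TPI1 and ENO1 were the genes of the table that passed throughout. TPI1 and ENO1 had been found through the list of DEGs, so PFKM was the only gene found by accession that did so. Over all 65535 unigenes, 6735 to 7627 passed in favour of Shaziling under these scalings.

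**Figure D4:**
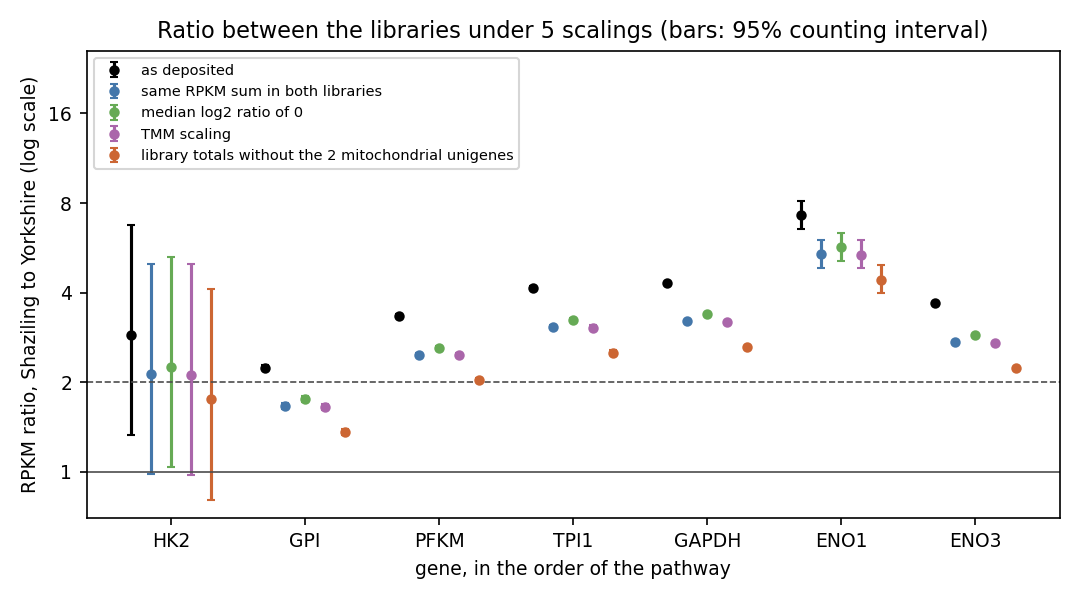
RPKM ratio of Shaziling to Yorkshire (log scale) of each enzyme with the deposited RPKM values and under 4 other scalings of the libraries; bars are 95% intervals of counting error, the solid line marks a ratio of 1 and the dashed line a ratio of 2. All points lie above 1, GPI falls below 2 with each of the other scalings (1.36 to 1.75), and the bars of HK2 are far wider than those of the other genes.

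Of 45 further genes of glycolysis and the pathways that join it, 8 were matched in the table by RefSeq accession, and their median ratio was 1.55. GPD1 and TALDO1 passed the thresholds in favour of Shaziling, none passed in favour of Yorkshire, and 6 did not pass. With 2 of 8 genes, this is near the 19.3% of all unigenes that passed in favour of Shaziling. GPD1, which reduces the triosephosphate that TPI1 also uses and so links glycolysis to glycerol lipids, was the one gene of this list with a mean RPKM of 100 or more. Its unigene First_Contig459 (1026 bp) had 1821 Yorkshire reads (RPKM 52.3) and 7410 Shaziling reads (RPKM 255), a 4.88-fold difference. A further GPD1 unigene, contig_4001 (1532 bp), had a ratio of 5.62.

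TALDO1, an enzyme of the pentose phosphate pathway, had a ratio of 3.12, with RPKM values of 4.16 for Yorkshire and 13.0 for Shaziling. TKT, which acts beside it, had a ratio of 1.11, with an interval of 0.930 to 1.34 that includes 1. GYS1, the muscle glycogen synthase, had RPKM values of 41.9 and 47.0 (ratio 1.12). PGD had a ratio of 1.88 and GPD1L of 1.22. PGM2 had a ratio of 0.715 with an interval of 0.443 to 1.14, and its other unigene, with 4 Yorkshire and 5 Shaziling reads, had a ratio above 1 with an interval of 0.323 to 7.56. The other genes of the list, among them aldolase, phosphoglycerate kinase, pyruvate kinase and lactate dehydrogenase, were not analysed here. Unlike TPI1, ENO1, GAPDH and ENO3, genes of this list were not taken from the list of DEGs. That list names aldolase and phosphoglycerate kinase unigenes outside the table.

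Among 79 unigenes with a gene symbol and a mean RPKM of 100 or more, 12 had a log2 ratio within 0.50 of the enzymes' median. The nearest were SRL (sarcalumenin, a calcium-binding protein of the sarcoplasmic reticulum) with a ratio of 3.81, TXNIP with 3.99, BIN1 with 3.99, PDLIM3 with 3.33 and MYBPC2, a myosin-binding protein of fast fibres, with 3.31. Likeness was measured over 2 libraries only, and so each gene is compared by a single ratio.

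Markers of muscle fibres and of other cells were read beside the enzymes, by RefSeq accession. For skeletal muscle, 4 of 11 markers were found and were abundant, with a summed RPKM of 5499 in Yorkshire and 13326 in Shaziling. The 5 of 8 markers of fast fibres found had ratios of 1.57 (MYH1) to 5.75 (a fragment of MYLPF), and 2.43 for their sum. Of the slow fibre markers, 2 of 7 were found, with ratios of 1.23 for ATP2A2, 4.29 for MYL3 and 3.03 for their sum. Of the 7 enzymes, ENO1 alone had a ratio outside the range of the fast fibre markers, and only on its longer fragment (7.28). Its shorter fragment (5.56) lay inside. Without the MYLPF fragment, the fast fibre markers reached 4.13 (PVALB). The range of the slow fibre markers held all enzymes but GAPDH (4.32) and ENO1, so the enzymes were not particular to either list.

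Of the lists, the summed RPKM of the blood markers differed most, with a ratio of 11.2. HBB and ALAS2 (2 of 4 found) had ratios of 11.2 and 10.6, and the RPKM of HBB was 18.5 for Yorkshire against 207 for Shaziling. The 3 of 4 endothelial markers found ranged from 1.36 (PECAM1) to 20.2 (VWF), the 2 of 6 adipocyte markers found from 1.86 (FABP4) to 4.20 (CIDEC), and the 4 of 6 fibroblast markers found from 0.505 (LUM) to 1.24 (COL1A2). For smooth muscle, 0 of 4 markers were found. The part of these cells in the differences of the enzymes was not tested, and in bulk tissue fewer cells of a type and less RNA per cell cannot be told apart.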

How the data were processed

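LM RNA of 2 breeds was sequenced by the authors with paired-end reads after TruSeq library construction. They assembled the trimmed reads of both breeds *de novo* with CLC Genomics Workbench and CAP3 and matched the unigenes to protein databases with BlastX. The submitters' processing notes also name CASAVA 1.8, TopHat2 2.0.6 and the mouse build mm10, whose role is not given in the sources used here. The deposited read counts are whole numbers per unigene without normalization, and the program that counted them is not given in the sources used here. For the RPKM values, the authors used Qualimap 0.5. The length of each unigene, in bp, is also deposited by the authors. Per-sample columns left unused numbered 0. A tab is missing between 2 of the column names, so the names were assigned to the columns in their order. The authors' fold changes and p-values in the list of DEGs were not used.

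Each RPKM value, count and length implied 1 library total per breed. Of the reads in these totals, 87.0% (Yorkshire) and 72.7% (Shaziling) lay on unigenes of the deposited table. Symbols came from pig RefSeq protein accessions of Sscrofa11.1 (5698 unigenes with 4484 symbols). Of the 484 unigenes in the list of DEGs, 407 are in the table and 77 lie outside it. A gene with several unigenes was represented by that of highest mean RPKM. Ratios of ratios between enzymes have 95% intervals from the log odds of the reads. With 1 library per breed no replicate test was possible. The two-sided exact binomial test was tested on simulated data, in which 99.5% of 200 unigenes changed by 4-fold were recovered and 2 of 65335 unchanged ones were called. The simulated reads held counting error only, with no spread between pigs and no shift in mitochondrial reads. No minimum RPKM was set, and the changed unigenes all had more reads than HK2. The simulation therefore gives no error rate for differences between breeds. Log2 ratios in the section on processing use a pseudocount of 1. Genes were named by rule: all members, pathway genes with a mean RPKM of 100 or more, and the 5 genes nearest to the members' median ratio; the other pathway genes, markers and the spread between unigenes of a protein were added after their values were seen. Members and lists were chosen with earlier results of these data known. Promoter motifs and protein sequences were not analysed here. Among the pathway genes, 1 is not reported here. Python 3.11.15, scipy 1.17.1, pandas 2.3.3 and edgeR 4.0.16 (TMM factors only) were used.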

Additional observations from a re-analysis of the deposited data

How the results depend on the processing

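With the deposited RPKM values and a pseudocount of 1, the median log2 ratio of the 7 enzymes was 1.88. It was 1.45 with equal RPKM sums and 1.53 with the median log2 ratio set to 0. It was 1.44 with TMM factors and 1.16 when the reads of the 2 mitochondrial unigenes were taken off the totals. The number of enzymes of the table that passed the thresholds fell from 5 to 3 under each of these 4 scalings and with a fold change of 3. These 3 include TPI1 and ENO1, which had been found through the list of DEGs. Of the further pathway genes, 1 in place of 2 passed without the reads of the 2 mitochondrial unigenes. Over all 65535 unigenes, 12658 were higher in Shaziling as deposited. The number was 6735 with the same RPKM sum and 7627 with a median log2 ratio of 0. It was 7612 with TMM scaling and 6867 without the 2 mitochondrial unigenes. With a fold change of 3 it was 9392, and at a minimum RPKM of 10 it was 1487. Among unigenes whose mean RPKM was at least 100, 24.7% to 30.9% had a ratio of 2 or more under these 4 scalings. Among the calls in either direction, the share higher in Shaziling was 76.5% as deposited, 51.0% with the same RPKM sum, 56.4% with a median log2 ratio of 0, 51.7% with TMM scaling and 37.5% without the mitochondrial unigenes. These scalings lower every Shaziling value by the same factor relative to Yorkshire.

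Across 8 alternatives for each enzyme, 0 of 56 log2 ratios changed sign. This was fixed in advance. A pseudocount cannot change the sign of a log2 ratio, and the lowest relative scaling factor (0.608) keeps ratios of 2 or more above 1. For genes with 1 unigene, the longest and the summed unigenes repeat the main value. Of the 56 log2 ratios, 24 moved by more than counting error, all of them with another scaling. The longest unigene, summed unigenes and other pseudocounts left the log2 ratios within counting error, and the former pair left ENO1 relative to ENO3 and to GAPDH within it as well. For HK2, the log2 ratio ranged from 0.39 to 1.53. With the deposited RPKM values it was 0.60 with a pseudocount of 1 and 1.53 without, because the pseudocount is large beside its RPKM. The lowest value came with another scaling and the pseudocount of 1. Depth limits HK2 alone, with 34 reads over both libraries. No paired analysis was possible because each breed has 1 library.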
